A study of Mus musculus with 18 samples.

Results

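The 9 genes described here are markers of the visceral endoderm: Afp, Alb, Ttr, Apoa1, Apob, Rbp4 and Trf, which encode secreted plasma proteins, Hnf4a, which encodes a nuclear receptor, and Ihh, which encodes a hedgehog ligand. They were taken by symbol, with no threshold on their values, and all 9 of 9 were measured, each by 1 probe set, among 19938 genes. The study exposed F9 cells, a mouse embryonal carcinoma line, to retinoids and measured RNA on whole-transcript arrays. ATRA (all-trans retinoic acid, which activates all retinoic acid receptors), BMS753 (an agonist of the receptor RARα) and BMS641 (RARβ) were given at 1 µM, and BMS961 (RARγ) at 0.1 µM. Each retinoid has 1 array at each of 2, 6, 24 and 48 h, and ethanol vehicle has 2 arrays at 48 h, 18 arrays in all. The cells grew attached to gelatine-coated plates in medium with 10% foetal calf serum. Whether the vehicle pair was grown separately is not stated, so the spread between its arrays may be technical. The p-values measure only the spread between these arrays. In the fit below, that spread also holds differences between retinoids in their change between times. F9 is a single tumour-derived line, which limits it as a model of the embryo.

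The visceral endoderm is the epithelium that surrounds the early mouse embryo, takes up maternal nutrients and secretes many of the plasma proteins that the liver makes later. Hnf4a is needed in it for the genes of those secreted proteins, and Ihh signals from it to neighbouring tissue. F9 cells given retinoic acid are known to turn into primitive endoderm on a flat surface, into parietal endoderm when cyclic AMP is raised as well, and into visceral endoderm when they grow as aggregates. The comparison asks whether any of the 4 retinoids switched on the visceral genes in attached cells.

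Levels are log2 values as deposited, so a difference of 1 is 2-fold. To judge a dim probe set, the 95th percentile of 1027 olfactory receptor genes, a family rarely transcribed outside the nose, was taken on each array as a background bound. It lay between 4.55 and 4.96, and a median of 67.5% of all genes lay above it. Probe sets differ in their own background, so the bound is a guide, and levels were compared only within a gene. A gene was counted as switched on where it was above the bound and at least 2-fold above both vehicle arrays. In bulk RNA, fewer cells of a type and less RNA per cell cannot be told apart.

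Pluripotency markers were present throughout: Pou5f1, a core pluripotency factor, lay between 11.80 and 12.21 on the 18 arrays. Of 12 such markers, 11 were above the bound on every array, though some of the 12 fell with late ATRA, as given below. The retinoid response was visible too: Cyp26a1, which degrades retinoic acid, was at 5.05 and 4.85 in vehicle, 9.14 after 48 h of BMS961 and 12.01 after 48 h of ATRA. The vehicle arrays differed from each other. Vehicle replicate 1 had more Stra8, a retinoid target (8.44 against 5.17), more Dab2 (8.20 against 5.51) and more Cubn (6.44 against 4.63) than replicate 2. Of the 9 visceral endoderm genes 8 were higher in vehicle replicate 1, beside 55.7% of all genes. The median difference was 0.34 over the 9 and 0.05 over all genes. Each result against vehicle rests on this pair, and the part of that difference in the results was not tested.

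None of these 9 genes was switched on by any of the 4 retinoids at any of the 4 times. Of 144 pairs of a gene and a retinoid array, 0 met the definition and 0 were at least 2-fold above both vehicle arrays. Over all genes 0.414% of such pairs passed that fold, with 3.26% on the ATRA array at 48 h and 1.01% on the BMS961 array at 48 h. With 9 genes, a count of 0 is not far from these shares. Hnf4a, Trf and Ihh were above the bound on all 18 arrays, vehicle included. Apoa1 was above it on 16 and Rbp4 on 1, while Afp, Alb, Ttr and Apob were above it on none. The range of a gene over the 18 arrays had a median of 0.74 in the 9 genes, 0.68 in all genes and 0.52 in the olfactory receptor genes.

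**Figure D1:**
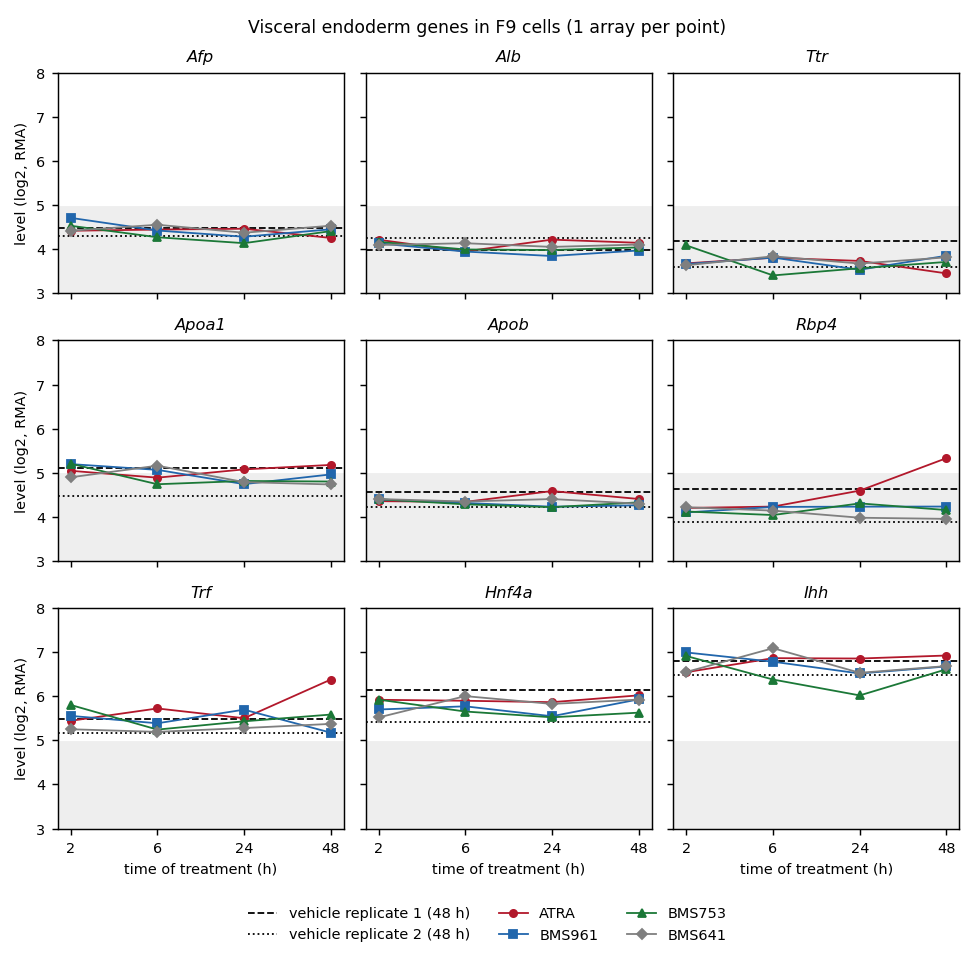
Log2 level of each of the 9 visceral endoderm genes (vertical axis) against hours of retinoid treatment (horizontal axis), 1 point per array and 1 line per retinoid, with lines for the vehicle arrays and grey shading up to 4.96, the highest background bound of any array. Rbp4 and Trf stand out on the ATRA array at 48 h, at 5.33 and 6.38, and the other lines stay near the vehicle levels.

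Afp encodes alpha-fetoprotein, the main plasma protein of the visceral endoderm and fetal liver. Its level was 4.48 and 4.29 in the vehicle arrays. In the 16 retinoid arrays it was lowest at 4.13 (BMS753, 24 h), had a median of 4.42 and was highest at 4.71 (BMS961, 2 h). The 16 arrays overlapped the vehicle pair, with 4 above both, 8 between and 4 below. After ATRA, Afp was at 4.42, 4.44, 4.46 and 4.25 at 2, 6, 24 and 48 h, so the longest treatment gave the lowest of these 4 values.

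Alb encodes albumin, the most abundant protein of adult plasma. It was at 3.99 and 4.26 in vehicle and between 3.84 and 4.21 in the retinoid arrays, with a median of 4.07 and no array above both vehicle arrays. Ttr encodes transthyretin, a carrier of thyroid hormone and of the retinol-binding protein. It was at 4.19 and 3.60 in vehicle and between 3.40 and 4.08 with retinoid, with a median of 3.69, and again no array was above both vehicle arrays. Its level on the ATRA array at 48 h, the array with the lowest background bound, was 3.45, below both. For these 3 classical markers the vehicle and retinoid arrays were not separated.

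The promoters of Afp and Alb are shown because these neighbouring genes on chromosome 5 are the usual readout of visceral differentiation, and that of Rbp4 because it had the clearest difference here. The sequences are the 250 bases before the RefSeq start, 5′ to 3′ on the gene's strand, on GRCm38.p6, and capitals mark matches to the searched letters. They are Afp at chr5:90490464-90490713 (plus strand), Alb at chr5:90460620-90460869 (plus strand) and the first Rbp4 start at chr19:38124812-38125061 (minus strand).
Afp: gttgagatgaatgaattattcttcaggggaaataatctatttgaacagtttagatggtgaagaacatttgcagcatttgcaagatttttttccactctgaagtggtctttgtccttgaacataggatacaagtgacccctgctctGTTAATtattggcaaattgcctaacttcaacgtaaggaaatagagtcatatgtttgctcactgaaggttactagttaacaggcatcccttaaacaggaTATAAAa
Alb: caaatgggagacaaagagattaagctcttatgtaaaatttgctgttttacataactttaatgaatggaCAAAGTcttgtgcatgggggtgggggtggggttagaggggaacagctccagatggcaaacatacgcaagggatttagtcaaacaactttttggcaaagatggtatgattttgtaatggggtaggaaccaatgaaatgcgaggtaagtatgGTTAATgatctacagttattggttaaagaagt
Rbp4: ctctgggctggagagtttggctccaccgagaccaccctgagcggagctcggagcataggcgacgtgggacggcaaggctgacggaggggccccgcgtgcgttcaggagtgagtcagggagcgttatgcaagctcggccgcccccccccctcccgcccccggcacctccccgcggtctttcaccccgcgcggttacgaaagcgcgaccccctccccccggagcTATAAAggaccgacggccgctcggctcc
The letters TATAAA (the core promoter box), AGATAA (bound by GATA factors), GTTAAT (hepatocyte nuclear factor 1), AGGTCA (nuclear receptor half-site), CAAAGT (hepatocyte nuclear factor 4) and TGTTTAC (forkhead factors) were searched on both strands, from 250 bases before to 50 after the start. GTTAAT was in 3 of the 9 windows of 7 of these genes (Afp, Alb and Hnf4a) and in 7.10% of 32851 windows of all genes. TATAAA was in 3 (Afp, Apob and Rbp4, against 13.6%), and AGATAA was in 1 (Hnf4a, against 11.2%). CAAAGT was in 1 (Alb, against 14.4%), TGTTTAC in 1 (the second Rbp4 window, against 3.65%) and AGGTCA in 0, against 16.3%. Counted from the start, GTTAAT began at base -105 in Afp and at base -32 in Alb. TATAAA began at base -7 in Afp, at base -60 in Apob and at base -28 in Rbp4, so its place differed between the 3 genes. A match describes letters in this window and shows no binding.

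Apoa1 and Apob encode the main proteins of high and low density lipoproteins. Apoa1 was at 5.11 and 4.46 in vehicle, a gap of 0.65, and between 4.73 and 5.20 with retinoid. After ATRA it was at 5.04, 4.89, 5.07 and 5.18 at 2, 6, 24 and 48 h, which exceeds the higher vehicle array only at 48 h. Apob was at 4.57 and 4.23 in vehicle and between 4.22 and 4.58 with retinoid, the narrowest range of the 9 genes at 0.37. Mttp, the transfer protein that loads lipid onto apolipoprotein B, belongs to a wider list of 19 measured plasma proteins and their partners. It was at 5.54 and 5.17 in vehicle and at 6.38 after 48 h of ATRA.

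Rbp4 encodes the plasma retinol-binding protein, which carries vitamin A to tissues. It was at 4.63 and 3.88 in vehicle. After ATRA it was at 4.20, 4.23, 4.59 and 5.33 at 2, 6, 24 and 48 h. After BMS961 it was at 4.10, 4.22, 4.23 and 4.23, after BMS753 at 4.12, 4.04, 4.30 and 4.15, and after BMS641 at 4.22, 4.14, 3.98 and 3.95. The ATRA array at 48 h was the highest of the 18 and the only one above the background bound, while the other 15 retinoid arrays all lay between the vehicle arrays. It was 0.70 above vehicle replicate 1 (1.63-fold) and 1.45 above replicate 2. The gap to the next array, 0.70, was slightly smaller than the 0.74 between the vehicle arrays, so against vehicle the excess at 48 h is no larger than the spread of that pair. Below it, the order of the arrays is not resolved for the same reason.

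Trf encodes transferrin, which carries iron in plasma. It was at 5.48 and 5.16 in vehicle. After ATRA it was at 5.44, 5.72, 5.50 and 6.38 at 2, 6, 24 and 48 h. After BMS961 it was at 5.56, 5.39, 5.70 and 5.18, after BMS753 at 5.80, 5.24, 5.43 and 5.58, and after BMS641 at 5.25, 5.19, 5.28 and 5.37. The ATRA array at 48 h was again the highest, 0.89 above the higher vehicle array (1.86-fold) and 0.57 above the next array, more than the 0.32 between the vehicle arrays. Of the 16 retinoid arrays 7 were above both vehicle arrays and 9 between them. The values at 6 and 24 h of ATRA do not form a steady climb.

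Hnf4a, the nuclear receptor that controls many of the plasma protein genes, was at 6.14 and 5.42 in vehicle. All 16 retinoid arrays lay between these values, from 5.52 to 6.02 with a median of 5.85, so no retinoid moved it outside the vehicle pair. Ihh was at 6.81 and 6.49 in vehicle and between 6.02 (BMS753, 24 h) and 7.09 (BMS641, 6 h) with retinoid. Of its 16 retinoid arrays 6 were above both vehicle arrays, 8 between and 2 below, and its highest and lowest values came from agonists other than ATRA.

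To test the members, the times were combined into early (2 and 6 h) and late (24 and 48 h), and a linear model in limma was fitted to all genes on the 18 arrays. A gene was called at a Benjamini-Hochberg adjusted p under 0.05 over the 19938 genes. Against vehicle, 0 of 36 late comparisons of the 9 genes were called, and 2 had an unadjusted p under 0.05. The share of all genes called late was 4.71% for ATRA, 1.26% for BMS961, 0.186% for BMS753 and 0% for BMS641. With 9 genes a count of 0 is near each of these shares. Early, 0 of 36 were called and 0 had an unadjusted p under 0.05, beside 1.25% of all genes for ATRA, 0.0401% for BMS961 and 0% for both BMS753 and BMS641. Vehicle was measured at 48 h only, so the arrays at 2, 6 and 24 h differ from it in hours of treatment as well as in retinoid.

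Rbp4 was 0.71 ± 0.24 higher (log2 difference ± SE, 95% interval 0.19 to 1.22) with late ATRA than with vehicle, with a limma adjusted p of 0.113. Trf was 0.62 ± 0.27 higher (0.03 to 1.20), with a limma adjusted p of 0.226. The other 7 genes differed by -0.30 (Ttr) to 0.34 (Apoa1) in that comparison, and their lowest limma adjusted p was 0.412. For Afp the difference was -0.03 with an interval of -0.36 to 0.30. Over these 7 genes no 95% interval reached above 0.78 with late ATRA, so a 2-fold rise in the mean of 24 and 48 h lay outside each. A rise on the 48 h array alone is averaged with the 24 h array there, so the intervals do not bound it. Values of dim probe sets are compressed by background signal, and the interval covers the deposited level only. With the other agonists, late Rbp4 differed from vehicle by -0.02 (BMS961), -0.03 (BMS753) and -0.29 (BMS641). Single arrays moved these values both ways. The Rbp4 difference with late ATRA was 0.31 without the ATRA array at 48 h, 0.34 without vehicle replicate 2, 1.08 without vehicle replicate 1 and 1.10 without the ATRA array at 24 h. For Trf it was 0.13 without the ATRA array at 48 h and 1.10 without that at 24 h. Without vehicle replicate 1, Rbp4 and Apoa1 were called, and without the ATRA array at 24 h, Rbp4 and Trf were called.

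**Figure D2:**
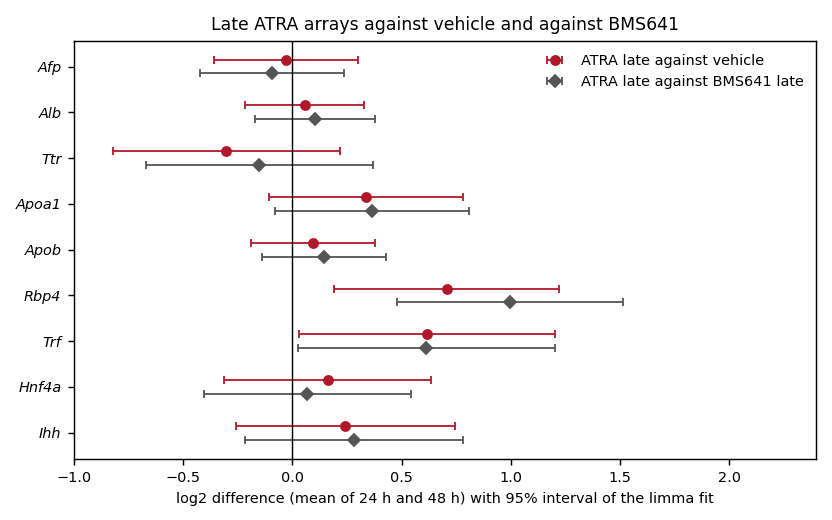
Difference in level of each of the 9 genes (listed on the vertical axis) for late ATRA against vehicle (circles) and against late BMS641 (diamonds), in log2 on the horizontal axis, with bars for 95% intervals of the limma fit. Rbp4 lies at 0.71 against vehicle and at 1.00 against BMS641, where it was the only one of the 9 called.

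With BMS641, 0 of 19938 genes were called against vehicle by limma, and 916 late and 1501 early had an unadjusted p under 0.05. With no true difference, a share of about 0.05 of the genes would pass that threshold. Its arrays give a second reference at matched times. ATRA, BMS753 and BMS641 were given at the same dose. BMS961 was given at 0.1 µM, so its values stand beside the others without a matched comparison. On single arrays, 2 of 108 pairs were at least 2-fold above BMS641 at the same time, against 1.14% of such pairs over all genes. Both came from ATRA at 48 h, where 5.34% of all genes passed: Rbp4 by 1.38 (2.60-fold) and Trf by 1.00 (2.01-fold). The next largest was Rbp4 with ATRA at 24 h, by 0.61.

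In the fit, 1 of 27 late comparisons with BMS641 was called. The share of all genes called was 14.8% for ATRA, 1.19% for BMS961 and 0% for BMS753, so 1 of 9 genes with ATRA is near the background. Rbp4 was 1.00 ± 0.24 higher with late ATRA (1.99-fold, 95% interval 0.48 to 1.51, limma adjusted p = 0.0178). Trf differed by 0.61 ± 0.27 (0.03 to 1.20, limma adjusted p = 0.154), by 0.13 without the ATRA array at 48 h, by 1.10 without that at 24 h, where it was called, and by 0.29 with the array set as a block. For BMS753 the difference in Rbp4 was 0.26 (-0.25 to 0.78) and for Trf 0.18 (-0.41 to 0.77). The Rbp4 call was lost without the ATRA array at 48 h (0.60, limma adjusted p = 0.174), without BMS641 at 24 h (1.11, limma adjusted p = 0.0718) and without BMS641 at 48 h (0.88, limma adjusted p = 0.18). A block was also fitted that puts the ATRA arrays with vehicle replicate 1 and the agonist arrays with replicate 2, a grouping read from the values and not from the labels. With it the Rbp4 difference was 0.25, with a limma adjusted p of 0.842. The block sets ATRA less vehicle replicate 1 against BMS641 less vehicle replicate 2, so it takes off the 0.74 between the vehicle arrays. Array set and retinoid cannot be told apart without that pair. Early, 0 of 27 comparisons were called, beside 1.6% of all genes for ATRA, 0.00502% for BMS961 and 0% for BMS753. Between late and early over all 4 retinoids, 0 of 9 genes were called, while 7.58% of all genes were.

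Other visceral endoderm and liver genes give the setting of these values. Of 19 other plasma proteins and partners, 0 were called with late ATRA against vehicle, beside 4.71% of all genes. With 19 genes, a count of 0 is near that share. Their median difference was 0.05, beside -0.02 for all genes. Against BMS641, 2 of the 19 were called higher with ATRA, no more than the 14.8% of all genes called there, namely Mttp (1.03 ± 0.20, limma adjusted p = 0.00801) and Apoe (0.95 ± 0.26, limma adjusted p = 0.0297). With the array set as a block neither was called, and the Apoe difference turned to -0.024 (limma adjusted p = 0.985). Apoe, the apolipoprotein of remnant particles, was at 11.96 and 10.99 in vehicle and fell by 1.41 with late BMS961 against vehicle (limma adjusted p = 0.0225). Of 10 hepatocyte enzymes, 0 were called in either ATRA comparison, beside 4.71% of all genes against vehicle and 14.8% against BMS641. With 10 genes, a count of 0 is not far from these shares. At most 2 of the 10 were above the bound on any array, beside a median of 67.5% of all genes.

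Of 14 measured transcription factors of endoderm and liver, 4 rose and 1 fell with late ATRA against vehicle, where 4.71% of all genes were called. The pioneer factor Foxa1 rose by 2.19 ± 0.28 (limma adjusted p = 0.00208) and Gata6, the factor that directs primitive endoderm, by 3.35 ± 0.51 (limma adjusted p = 0.00566). Gata4 rose by 2.03 and Sox7 by 1.59, and Nr5a2, an orphan nuclear receptor of endoderm and pluripotent cells, fell by 1.71. With late BMS961, 2 of 14 rose against vehicle, where 1.26% of all genes were called, Gata6 by 3.62 and Foxa1 by 1.55. Gata6 was at 7.08 and 6.03 in vehicle, 11.30 after 48 h of ATRA and 10.93 after 48 h of BMS961, so these arrays lay far above the vehicle pair. With BMS753 and BMS641, 0 of the 14 were called late against vehicle, beside 0.186% and 0% of all genes.

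**Figure D3:**
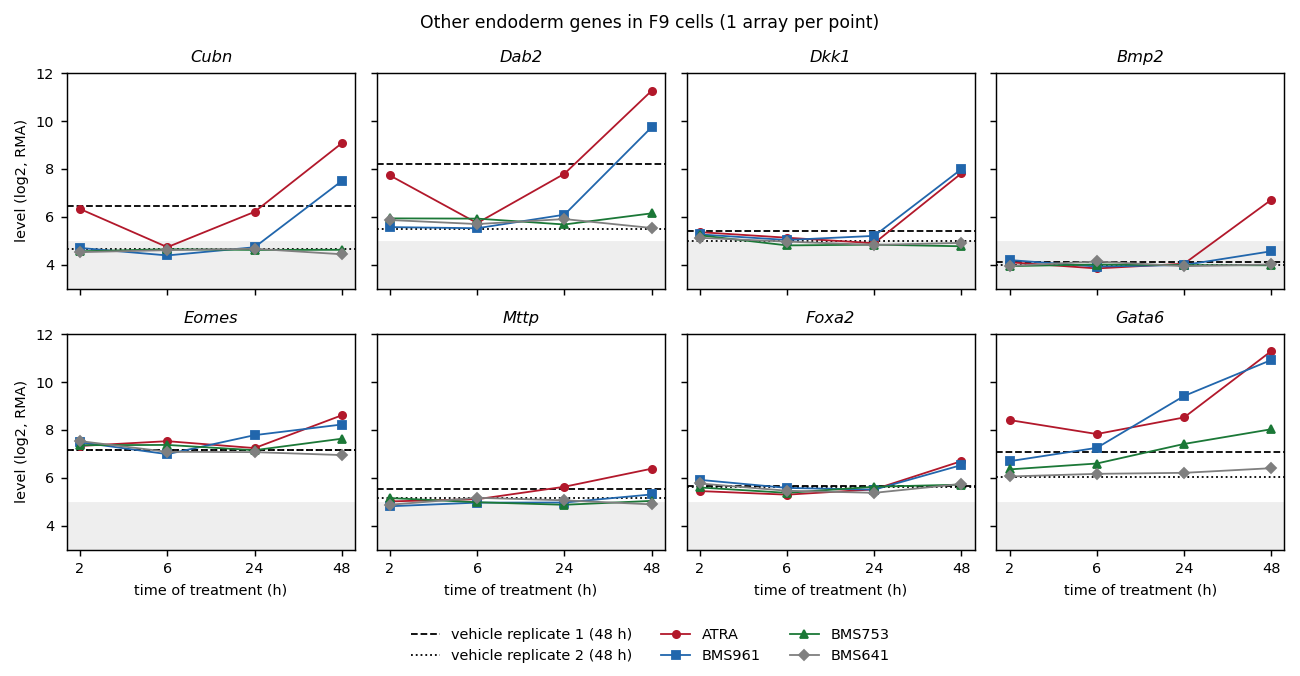
Log2 level (vertical axis) against hours of treatment (horizontal axis) for 8 other endoderm genes, 1 point per array and 1 line per retinoid, with lines for the vehicle arrays and grey shading up to the highest background bound. Gata6, Cubn and Dab2 reach 11.30, 9.07 and 11.27 on the ATRA array at 48 h, above both vehicle arrays.

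Among genes of nutrient uptake and of the anterior visceral endoderm, several were high at 48 h. Cubn encodes cubilin, an endocytic receptor of the visceral endoderm, and was at 6.44 and 4.63 in vehicle, 9.07 after 48 h of ATRA and 7.50 after 48 h of BMS961. Dab2, an endocytic adaptor, was at 8.20 and 5.51 in vehicle, 11.27 after 48 h of ATRA and 9.74 after 48 h of BMS961. Both genes exceeded both vehicle arrays by at least 2-fold at 48 h with ATRA and with BMS961. Of the 12 genes of this list 5 passed that fold on the ATRA array and 4 on the BMS961 array, beside 3.26% and 1.01% of all genes. The difference from the 9 genes was not tested. Dkk1, a secreted Wnt inhibitor, was at 5.41 and 4.99 in vehicle, 7.82 with ATRA and 7.99 with BMS961. Bmp2, a secreted growth factor, was at 4.12 and 3.98 in vehicle and 6.71 with ATRA. In the fit, 0 of the 12 were called against vehicle with late ATRA, beside 4.71% of all genes, and 4 against BMS641, beside 14.8%, among them Dab2 (3.82 ± 1.00, limma adjusted p = 0.0262) and Cubn (3.09 ± 0.78, limma adjusted p = 0.0227).

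Receptors and partners of the secreted proteins formed a list of 12 measured genes. Stra6, the cell surface receptor for Rbp4, was at 6.06 and 5.65 in vehicle, 8.94 after 48 h of ATRA and 7.66 after 48 h of BMS961. It rose by 2.54 ± 0.27 with late ATRA (limma adjusted p = 0.000862) and by 1.90 ± 0.27 with late BMS961 (limma adjusted p = 0.00677). Crabp2, a carrier of retinoic acid inside the cell, was at 5.81 and 6.19 in vehicle, 7.86 after 24 h of ATRA and 11.47 after 48 h. Its late ATRA value was 3.66 above vehicle (limma adjusted p = 0.0244), 1.56 without the ATRA array at 48 h and 5.77 without that at 24 h, and the call was lost with the block or without vehicle replicate 2 (limma adjusted p = 0.12 in both). Abca1, which passes lipid to Apoa1, fell by 1.12. Tfrc, the transferrin receptor, was at 10.23 and 11.51 in vehicle and 9.59 after 48 h of ATRA, and it fell by 1.68 ± 0.32 with late ATRA against BMS641 (limma adjusted p = 0.0077). Against vehicle its difference was -0.96, with a limma adjusted p of 0.114. In all, 3 of the 12 rose and 1 fell with late ATRA against vehicle, and 1 rose and 1 fell with late BMS961, beside 4.71% and 1.26% of all genes called.

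Of 14 other measured genes of the hedgehog pathway, 1 was called with late ATRA against vehicle, the ligand Shh (0.57 ± 0.14, limma adjusted p = 0.0385), and 1 with late BMS961, the co-receptor Boc (1.02 ± 0.19, limma adjusted p = 0.0229). These counts stand beside 4.71% and 1.26% of all genes, and 1 of 14 is near the first share. Gas1, another co-receptor, was at 7.08 and 6.41 in vehicle and 9.19 after 48 h of ATRA. Its difference from BMS641 with late ATRA was 1.67 ± 0.38 (limma adjusted p = 0.0151). Hhip, an inhibitor that binds hedgehog ligands, was at 9.25 and 8.28 in vehicle and at 9.60 after 48 h of ATRA, and was called in neither ATRA comparison.

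Of all 23 genes of the plasma protein, factor, uptake, hedgehog and partner lists called with late ATRA against BMS641, 0 were called with the array set as a block. Against vehicle 4 of 10 were called, namely Foxa1, Nr5a2, Stra6 and Abca1. Over all genes, the block left 13 called against BMS641, where 2948 were called without it. Against vehicle it left 175, where 940 were called without it. The 0 of 23 is thus near the share over all genes. For BMS961 5 of 6 were called with the block against vehicle, where it compares BMS961 with vehicle replicate 2 only. The block puts BMS961 and BMS641 in the same set. It therefore leaves their differences unchanged (Gata6 3.87 with and without it), and cannot check the 4 calls of BMS961 against BMS641. Calls also rested on single arrays. Of the 23, 19 were lost without ATRA at 48 h and 21 without BMS641 at 48 h, and only Foxa1 and Stra6 were called whichever array was left out. Of the 10 against vehicle, 6 were lost without ATRA at 48 h and 6 without vehicle replicate 2, Gata6, Gata4 and Sox7 among both, and Foxa1, Stra6 and Abca1 were called in every case. With BMS961 against vehicle, 6 of 6 were lost without its array at 24 h and 5 without that at 48 h.

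Of 15 parietal endoderm markers, which mark the other extraembryonic endoderm, 4 rose with late ATRA against vehicle, with a median difference of 1.09, and 11 were at least 2-fold above both vehicle arrays at 48 h, beside 4.71% and 3.26% of all genes. Lama1, a laminin chain of the basement membrane, was at 7.04 and 6.96 in vehicle, 10.40 after 48 h of ATRA and 9.70 after 48 h of BMS961. Plat, a plasminogen activator, was at 5.42 and 5.04 in vehicle, 9.55 with ATRA and 7.10 with BMS961. Of markers of other cells, 0 of 8 yolk sac blood and endothelium genes, 0 of 7 trophoblast genes and 1 of 8 fibroblast genes (Pdgfrb, higher) were called with late ATRA against vehicle, beside the same 4.71%. On single arrays at 48 h, the endothelial cadherin Cdh5, at 4.18 and 4.47 in vehicle, was at 7.22 with ATRA and 6.66 with BMS961, and the trophoblast gene Plac1, at 4.20 and 3.95 in vehicle, was at 5.27 with ATRA. Of the 12 pluripotency markers 6 fell with late ATRA against vehicle, beside 4.71% of all genes called in either direction. Among the 12, Tdgf1, a co-receptor of nodal, was at 11.98 and 11.82 in vehicle and 10.21 after 48 h of ATRA. For the calls in the parietal, other cell and pluripotency lists, dependence on the block and on single arrays was not examined.

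**Figure D4:**
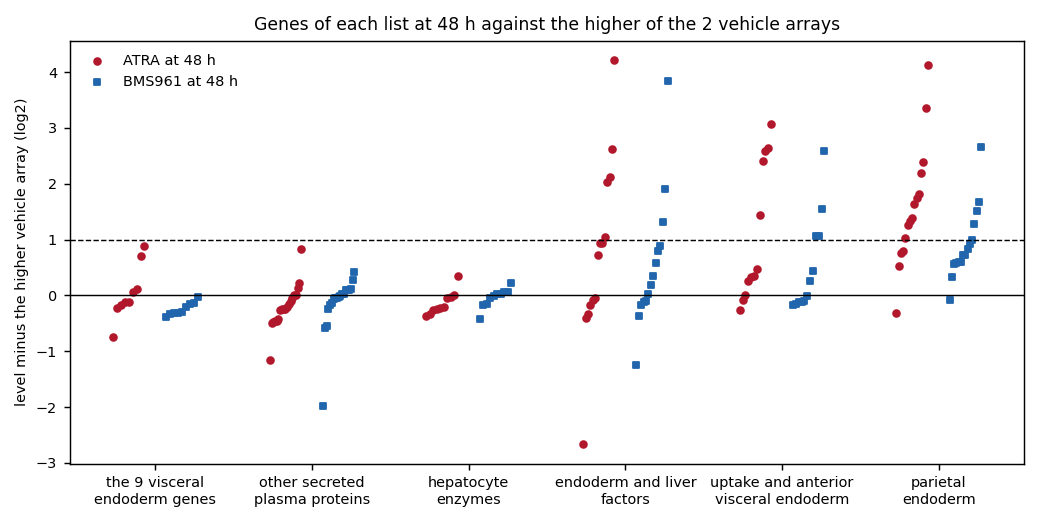
Level at 48 h minus the higher of the vehicle arrays (vertical axis, log2) for every gene of 6 lists (horizontal axis), with circles for ATRA, squares for BMS961 and a dashed line at a difference of 1. With ATRA, 0 of 9 visceral endoderm genes, 0 of 19 other plasma proteins, 5 of 14 transcription factors, 5 of 12 uptake genes and 11 of 15 parietal endoderm markers lie above the line.

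Genes whose levels followed Rbp4 most closely over the 18 arrays, by Pearson correlation among 4306 genes with a range of at least 1, were Ctsl (0.94), Tmem98 (0.94) and Lgmn (0.93). Without the ATRA array at 48 h the values over 17 arrays were 0.89, 0.81 and 0.80. For Trf they were Fgfr1 (0.85), Slc9a3r2 (0.83) and Slit2 (0.83), which dropped to 0.59, 0.58 and 0.53 without that array. For Ihh they were Hmcn1 (0.80), C2cd4b (0.80) and 4930563E22Rik (0.79). The 18 arrays share a cell line and a scale, and these values are descriptions of likeness in pattern.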

How the data were processed

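RNA of F9 cells was measured on 18 arrays. The deposited values are log2 levels per probe set, made by the authors with RMA in Affymetrix Expression Console 1.1, per the submitters' processing notes. The sources used here do not give which arrays were normalized jointly. They were used as deposited. The platform annotation gave 1 symbol for 21789 of 35556 probe sets, several for 1621 and no entry for 12146. A gene was its probe set with 1 symbol, the one with the highest mean where there were several (999 genes). No filter on level was applied to the 19938 genes. Samples were grouped from the labels.

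limma 3.58.1 (R 4.3.3; tables with Python 3.11.15 and pandas 2.3.3) fitted 9 group means (vehicle, and each retinoid in its early and its late pair of times) plus a shared change between 2 and 6 h and another between 24 and 48 h, with 7 residual degrees of freedom, and Benjamini-Hochberg adjustment within each of 15 comparisons. The residual spread holds the gap between the vehicle arrays and each retinoid's departure from the shared changes. With 1 array per retinoid and time, single times are given as values with no test. The fit was tested on simulated data with independent noise and the same shift on both late ATRA arrays. Those data held no difference between array sets, so that test does not cover one. The 9 genes and the gene lists were chosen with earlier results of these data known. Genes of the lists were named where called, or by the 4 largest ranges in a list, and for each of the 9 with a range of at least 1, the 3 genes most like it. Other normalizations, filters, folds, a block and leaving out each array were tried. Array number limits the precision.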

Additional observations from a re-analysis of the deposited data

Results flagged for a closer look

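The difference between ATRA and BMS641 in Rbp4 late was picked out because the effect of the 2 treatments, tested directly in the limma fit, differed by 1.00 (limma adjusted p = 0.0178). The ATRA arrays at 24 and 48 h were at 4.59 and 5.33, and the BMS641 arrays at 3.98 and 3.95. Vehicle replicate 1 was at 4.63, above the ATRA array at 24 h, and vehicle replicate 2 at 3.88, below both BMS641 arrays. The part of the array set in this difference was not tested apart from the block given with the settings.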

How the results depend on the processing

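No paired analysis was possible because only the vehicle group has replicate numbers and each retinoid and time has 1 array. The count of the 9 genes called late against vehicle, 0, was 0 under the other settings and between 0 and 2 when 1 array was left out. The count late against BMS641, 1, was 0 among genes above the median level (only 1 of the 9 genes is among them), 0 with the array set as a block, and between 0 and 2 when 1 array was left out. For Rbp4 with late ATRA against BMS641 the block gave 0.25 (limma adjusted p = 0.842), and leaving out 1 array gave 0.60 to 1.39, with the call kept in 15 of 18 cases. Apoe in the same comparison turned to -0.024 with the block. The 0 pairs at least 2-fold above both vehicle arrays became 2 at 1.5-fold, 2 against the mean of the vehicle arrays, and between 0 and 2 without 1 vehicle array. The 2 pairs at least 2-fold above BMS641 became 0 at 3-fold, 1 after quantile normalization and 1 with arrays centred on their medians. Of 162 pairs 71 were above the bound, 34 above the 99th percentile of the olfactory receptor genes and 21 above the median of all genes. Scaling moved the split of calls: late ATRA against BMS641 had 1557 genes higher and 1391 lower, and 1089 and 2479 with centred arrays, and against vehicle 660 and 280 became 394 and 370. The block left 175 genes called of 940 against vehicle and 13 of 2948 against BMS641. For single genes, 254 values under other settings kept their direction and their side of the threshold, 54 lost the call and 1 reversed. With 1 array left out, 643 kept both, 181 lost the call and 4 gained it.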
